A study of Sus scrofa domesticus with 36 samples.

Results

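The ubiquitin-proteasome system was examined in the backfat and the back muscle of 18 young pigs, through all genes whose pig symbol begins with PSMA, PSMB, PSMC, PSMD, PSME or UBE2, or with FBXO or TRIM and a digit, leaving out FBXO32. By this rule 109 of the 25322 genes counted belong to the set: 4 PSMA, 5 PSMB, 6 PSMC, 9 PSMD, 4 PSME, 18 UBE2, 25 FBXO and 38 TRIM genes. RNA sequencing had been done on 1 library of subcutaneous backfat and 1 library of longissimus dorsi (a long back muscle) from each of 18 pigs of a commercial cross (Danbred 600 × Newsham NC32, although the number after NC differs from label to label), all killed 3 weeks after weaning. A label of 16 to 17 days of age and of the stage weaning does not match that time, so no age at sampling is stated here. The pigs were 9 slow growers, from the lowest percentiles of growth up to percentile 10, and 9 from percentiles 60 to 70, out of 1054 animals. The class of a pig is not given in the labels, so the comparisons below are between adipose and muscle and between pigs, never between growth classes. No genome build is given with the counts, so genes are named by symbol, and for a few by Ensembl gene ID, without coordinates.

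The proteasome is the protease complex that destroys most short-lived proteins of a cell. Its barrel is built of alpha rings (PSMA genes) around catalytic beta rings (PSMB genes), and it is capped by a regulatory particle of ATPases (PSMC) and other subunits (PSMD), or by activators (PSME). Proteins are marked for it with ubiquitin, which passes from an activating enzyme (E1) to a conjugating enzyme (E2, most UBE2 genes) and, with a ligase (E3), to the target. F-box proteins (FBXO) pick targets for cullin ligases, and most tripartite-motif proteins (TRIM) are ligases themselves. Interferon exchanges the catalytic beta subunits for inducible ones, and skeletal muscle is known for ligases of its own, of which TRIM63 (MuRF1) is raised when muscle wastes.

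Adipose libraries held 2990913 to 5373406 gene counts and muscle libraries 4716541 to 6216459, and the 109 genes together took 0.411% to 0.613% of the counts of an adipose library and 0.269% to 0.605% of a muscle library. Markers went with the labels. The summed level of the 3 measured muscle fibre markers of 6 (ACTA1, MYBPC2, ATP2A1) was 42292 to 351371 CPM (counts-per-million, scaled) in muscle and 76.4 to 18992 CPM in adipose, and that of the 3 measured adipocyte markers of 6 (PLIN1, CIDEC, LIPE) was 573 to 1529 CPM in adipose and 25.5 to 282 CPM in muscle. None of these 6 genes was at 0 in any library. Pigs are named as in the labels. The adipose libraries of pigs Sample_176, Sample_391, Sample_731 and Sample_911, called the 4 actin-rich pigs below, had held the most muscle actin in earlier work on these data, and results that rest on them are given with and without these pigs. Macrophage markers (5 of 7 measured) summed to 172 to 843 CPM in adipose and 38.4 to 228 CPM in muscle, and lymphocyte markers (4 of 6) to 61.3 to 395 and 9.35 to 106 CPM. In bulk tissue, fewer cells of a type and less RNA per cell cannot be told apart.

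Of the 109 genes, 85 had enough counts to be tested. Between adipose and muscle, 47 of the 85 were called for muscle and 30 for adipose, and 8 were left without a call, by edgeR's quasi-likelihood test at a Benjamini-Hochberg adjusted p under 0.05. The threshold was passed by 85.9% of all 12542 genes tested, 46.7% higher in adipose and 39.2% higher in muscle. Median log2 differences, always adipose minus muscle, were -0.35 for the members and 0.14 for all genes. The direction of many of these differences depends on how libraries are scaled. The levels above use trimmed-mean factors, and with library totals alone the median gene moves from 0.14 to 1.5, so that 9 members are called for muscle and 64 for adipose, against 12.1% and 80.9% of all genes. Subtracting the median gene takes out this shift by construction, so the position relative to it cannot tell which scaling is right. There the members stood at -0.49 with trimmed-mean factors and at -0.50 with library totals. All 18 muscle libraries were above all 18 adipose libraries for 30 members, and all adipose above all muscle for 8, a separation found in 17.6% and 14.8% of all genes with trimmed-mean factors.

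**Figure D1:**
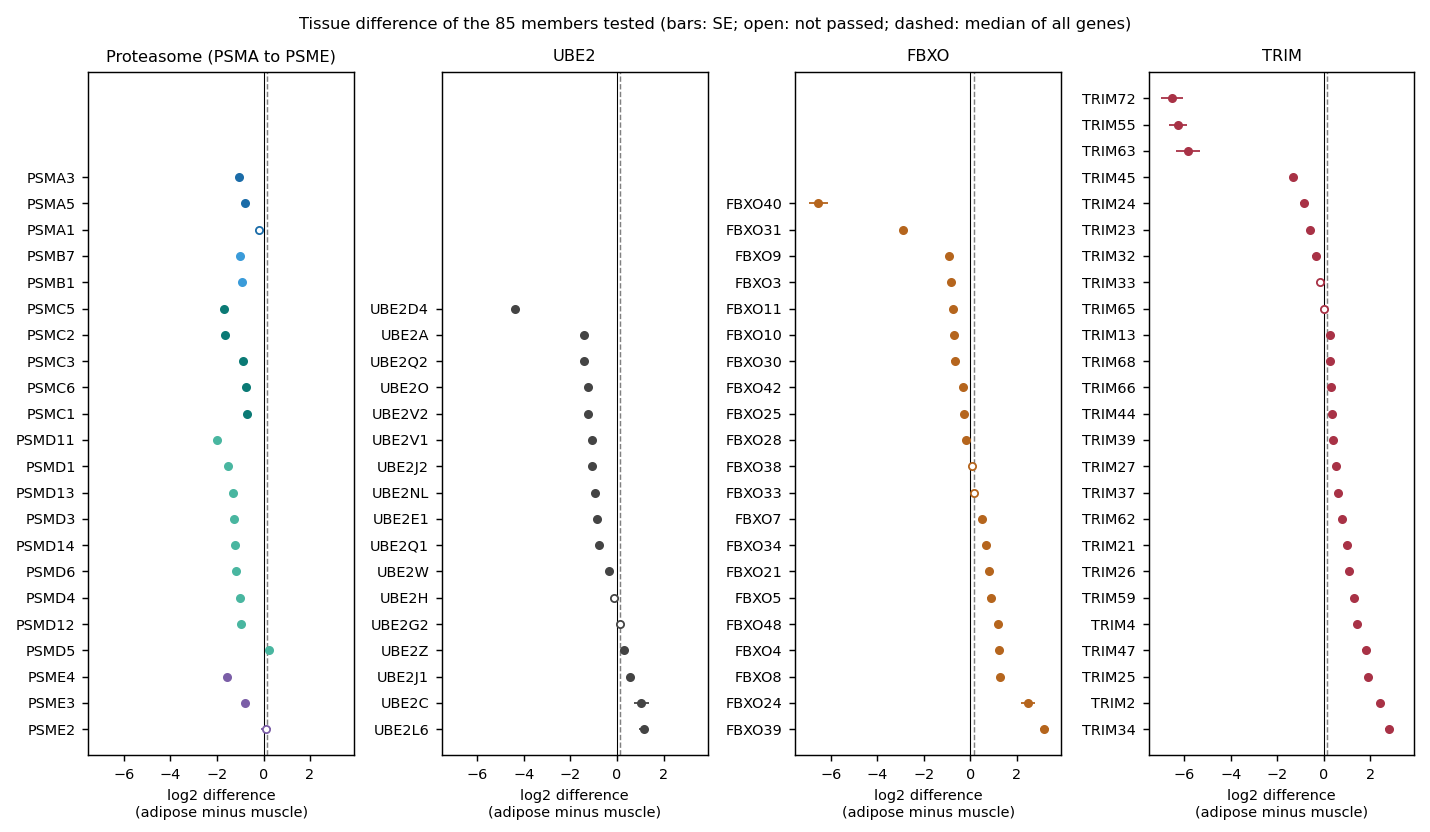
Log2 difference between tissues (adipose minus muscle, trimmed-mean scaling) for each of the 85 members tested, by subgroup, with bars for the SE, open points for genes that did not pass and a dashed line at the median of all genes. The 19 PSMA to PSMD genes lie between -2.01 and -0.20, apart from PSMD5 at 0.25, whereas FBXO and TRIM genes run from about -6.54 and -6.52 to 3.18 and 2.80.

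The subunits of the proteasome were mostly higher in muscle than in adipose. Of the 19 PSMA, PSMB, PSMC and PSMD genes tested, counted here as subunits with the assembly chaperone PSMD5 among them, 17 were higher in muscle and 1 in adipose, and 1 did not pass, with a median log2 difference of -1.03. Of all genes 39.2% were higher in muscle and 46.7% in adipose. With library totals alone the 19 genes give 3 calls for muscle and 11 for adipose, against 12.1% and 80.9% of all genes, and 5 that missed the threshold, and their median is 0.35. Relative to the median gene, which takes out the shift between scalings, 18 of the 19 stood on the muscle side under both, with medians of -1.17 and -1.16. Muscle was at least 2-fold higher for 11 of the 19, where 20.9% of all genes were called and this far apart. That count was 8 with upper-quartile factors and 0 with library totals, where 6.98% of all genes reached it.

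**Figure D2:**
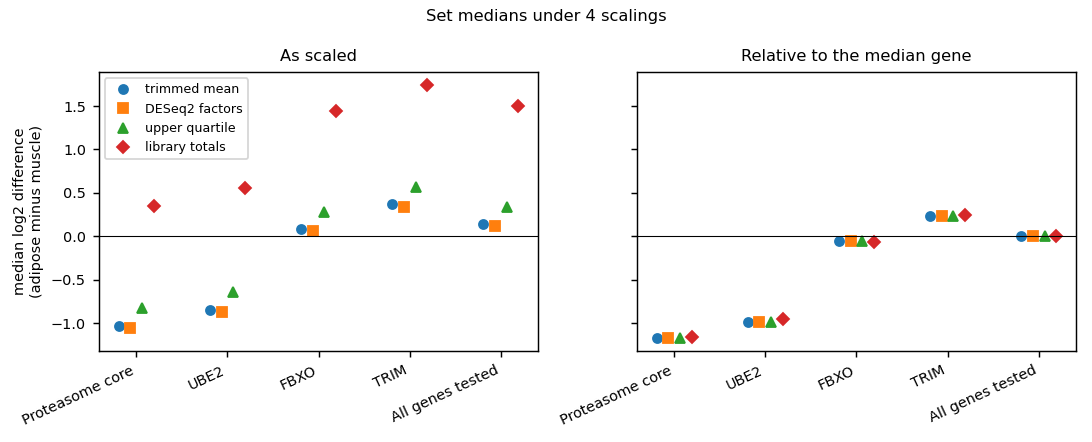
Median log2 difference (adipose minus muscle) of each subgroup and of all genes tested under 4 ways of scaling the libraries, as scaled (left) and after subtraction of the median gene (right). On the left the median of the proteasome subunits changes sign with library totals, from -1.03 to 0.35. On the right, where the shift between scalings is subtracted by construction, it stays near -1.17.

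Among the alpha ring genes, PSMA3 had 62.0 to 157 CPM in adipose (median 93.0) and 121 to 456 CPM in muscle (median 185). It was higher in muscle in 18 of 18 pigs, although the lowest muscle libraries lay within the range of adipose, with a log2 difference of -1.03 (SE 0.130, adjusted p = 2.53e-09) by edgeR's quasi-likelihood test. With library totals the sign turned, to 0.35. PSMA5, another subunit of the same ring, had 34.6 to 94.1 CPM in adipose (median 54.9) and 67.3 to 175.7 CPM in muscle (median 89.6), and was higher in muscle in 17 of 18 pigs (-0.80, SE 0.114, adjusted p = 3.96e-08; 0.60 with library totals). PSMA1 differed by -0.20 (SE 0.116) and did not pass (adjusted p = 0.107). For PSMA8, the alpha subunit of the testis proteasome, no read was counted in any library.

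The beta rings carry the catalytic sites, and of the 3 constitutive catalytic subunits only PSMB7, which cleaves after basic residues, could be matched by symbol. Its levels were 49.2 to 93.1 CPM in adipose (median 65.0) and 93.0 to 221 CPM in muscle (median 124). All 18 pigs had more in muscle, by 2.03-fold (-1.02, SE 0.0925, adjusted p = 5.67e-13 by edgeR), and the libraries of the tissues overlapped. The non-catalytic beta subunit PSMB1 had 49.96 to 98.7 CPM in adipose (median 66.9) and 104 to 184 CPM in muscle (median 117). Here no adipose library reached the lowest muscle library, and the log2 difference was -0.91 (SE 0.0837, adjusted p = 7.71e-13). Both signs turn with library totals, to 0.36 for PSMB7 and 0.45 for PSMB1.

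The ATPase ring of the regulatory particle, which unfolds targets and feeds them into the barrel, was higher in muscle for all 5 of its members tested. Of all genes 39.2% were higher in muscle. With library totals 2 of the 5 were higher in muscle and 3 in adipose, against 12.1% and 80.9% of all genes. PSMC5 had 84.2 to 132 CPM in adipose (median 102) and 243 to 518 CPM in muscle (median 305). The ranges were apart, muscle was 3.22-fold higher, and the log2 difference was -1.69 (SE 0.0882, adjusted p = 4.14e-20) by edgeR's quasi-likelihood test. For PSMC2 the levels were 14.9 to 26.5 CPM in adipose (median 18.9) and 45.0 to 88.0 CPM in muscle (median 54.7), again with no overlap and with 3.13-fold more in muscle (-1.64, SE 0.0857, adjusted p = 3.74e-20). Both stayed higher in muscle with library totals, at -0.35 and -0.30 (adjusted p = 0.00943 and 0.0206). PSMC3, PSMC6 and PSMC1 differed by -0.90, -0.74 and -0.70, and by 0.43, 0.64 and 0.64 with library totals. The remaining gene with this prefix, PSMC3IP, is a cofactor of meiotic recombination and not a subunit, and held 213 counts over all adipose libraries and 38 over all muscle libraries.

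Among the other subunits of the regulatory particle, 8 of 9 PSMD genes were higher in muscle, as 39.2% of all genes were. With library totals 1 was higher in muscle and 3 in adipose, against 12.1% and 80.9% of all genes, and 5 did not pass. PSMD11, a lid subunit, had 38.8 to 60.8 CPM in adipose (median 47.6) and 107 to 387 CPM in muscle (median 177). It stood farthest on the muscle side of all subunits, 4.02-fold with no overlap (-2.01, SE 0.123, adjusted p = 6.06e-18 by edgeR), and stayed there with library totals (-0.69, adjusted p = 0.000183). PSMD1, a large scaffold of the base, had 16.3 to 34.5 CPM in adipose (median 21.1) and 48.3 to 78.8 CPM in muscle (median 65.7), a log2 difference of -1.54 (SE 0.0895, adjusted p = 1.12e-18) that did not pass with library totals (-0.17, adjusted p = 0.183). The ubiquitin receptor PSMD4, the deubiquitinase PSMD14 of the lid, and PSMD3, PSMD6, PSMD12 and PSMD13 differed by -1.03, -1.20, -1.28, -1.20, -0.96 and -1.30. All had non-overlapping tissues, as 17.6% of all genes had with muscle higher. PSMD5 was the exception. This assembly chaperone of the base, which is not part of the finished proteasome, had 14.1 to 29.0 CPM in adipose (median 18.5) and 8.71 to 22.4 CPM in muscle (median 16.4), and was called higher in adipose at 0.25 (SE 0.108, adjusted p = 0.0307). That call is lost with DESeq2's size factors in the same test (0.22, adjusted p = 0.0501), and when pig Sample_77, Sample_176, Sample_242, Sample_391, Sample_835 or Sample_911 is left out, where the log2 difference falls to as little as 0.18 and the highest adjusted p is 0.0987.

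The activators that open the barrel were less alike. PSME4 (PA200), a nuclear activator that acts without ubiquitin, had 69.3 to 109 CPM in adipose (median 86.3) and 159 to 575 CPM in muscle (median 236), the highest being pig Sample_572. Muscle was 2.99-fold higher without overlap (-1.58, SE 0.120, adjusted p = 3.96e-15 by edgeR's quasi-likelihood test), a call that did not pass with library totals (-0.27, adjusted p = 0.102). The muscle library of pig Sample_572 was also the one with the lowest muscle fibre sum, 42292 CPM, and the highest adipocyte sum, 282 CPM. Its share of reads in no gene was the highest in muscle, 34.1% against a median of 19.0%. Without single pigs the difference of PSME4 ran from -1.62 to -1.46. PSME3 (PA28 gamma), another nuclear activator, had 16.3 to 28.2 CPM in adipose (median 20.8) and 29.9 to 43.3 CPM in muscle (median 37.3), with every muscle library above every adipose library (-0.79, SE 0.0661, adjusted p = 6.65e-14, but 0.59 with library totals). Its spread over pigs in muscle was narrow, with an SD of 0.149 on the log2 scale.

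PSME2 (PA28 beta, ENSSSCG00000002004), which interferon induces, took another course. Its levels were 63.7 to 224 CPM in adipose (median 145) and 43.4 to 317 CPM in muscle (median 113). The tissues overlapped almost wholly, 11 pigs had more in adipose and 7 more in muscle, and the log2 difference of 0.10 (SE 0.199) did not pass (adjusted p = 0.635 by edgeR). With library totals it passed, at 1.51 (adjusted p = 1.78e-08), which lies at the median gene of that scaling, 1.5. Its partner PSME1, which lies next to it in the gene order of RefSeq's Sscrofa11.1 table with 1 gene between, had no read counted in any library. The ratio of PSME2 to PSME3 within a library does not depend on scaling, and its log2 was 1.72 to 3.41 in adipose (median 2.82) and 0.175 to 2.95 in muscle (median 1.66). It was higher in adipose in 18 of 18 pigs, by 0.963 ± 0.618 (SD, n = 18), with a permutation p of 4e-05 from 100000 swaps of the tissues within pigs (two-sided). Over pigs the ratios of the tissues followed each other with a Spearman's rho of 0.389 (permutation p = 0.111) and a Pearson's r of 0.526 (permutation p = 0.0258), and r was 0.341 without the 2 pigs farthest from the median. Without the 4 actin-rich pigs rho was -0.00659. Of 5 planned ratios this was the only 1 that could be measured. PSME3 is a nuclear activator of its own, so the ratio does not measure an inducible share of the proteasome. With trimmed-mean factors PSME3 was lower in adipose, and PSME2 did not pass.

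The inducible catalytic subunits themselves were scarcely counted. PSMB8 (LMP7) held 177 counts over the adipose libraries and 74 over the muscle libraries, which is 0.294 to 2.12 CPM in adipose (median 1.42) and 0 to 3.84 CPM in muscle (median 1.12). PSMB9 (LMP2) held 21 and 5 counts and was at 0 in 6 adipose and 14 muscle libraries. In the same gene table these loci alternate with the peptide transporter genes TAP2 and TAP1, in the order TAP2, PSMB8, TAP1, PSMB9. TAP1 had 1.03 to 6.29 CPM in adipose (median 3.48) and 1.02 to 9.21 CPM in muscle (median 2.98). TAP2 had 2.20 to 20.0 CPM in adipose (median 9.27) and 1.37 to 27.1 CPM in muscle (median 7.05). Neither transporter gene passed, at 0.01 for TAP1 (adjusted p = 0.975 by edgeR) and 0.35 for TAP2 (adjusted p = 0.341). PSMB8 and PSMB9 fell under the filter on low counts. In the test without that filter neither passed, at log2 differences of 0.09 for PSMB8 (adjusted p = 0.797 by edgeR) and 0.76 for PSMB9 (adjusted p = 0.2). PSMB11, the beta subunit of the thymus proteasome, was at 0 in all libraries.

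The conjugating enzymes also leaned to muscle. Of 17 UBE2 genes tested, 11 were higher in muscle and 4 in adipose, against 39.2% and 46.7% of all genes, and 2 did not pass (median -0.84, or -0.98 relative to the median gene). With library totals the calls were 12 for adipose and 1 for muscle, against 80.9% and 12.1% of all genes, and the median relative to the median gene was -0.95. That 1 gene was UBE2D4 (ENSSSCG00000016722), an E2 that works with many ligases. It had 8.397 to 31.1 CPM in adipose (median 11.3) and 126 to 390.0 CPM in muscle (median 259). The highest adipose library, that of pig Sample_731, stayed below every muscle library, and muscle was 20.6-fold higher (-4.36, SE 0.160, adjusted p = 8.97e-25 by edgeR's quasi-likelihood test, -2.96 with library totals). UBE2D genes are close copies of each other, so how their reads were assigned makes this level uncertain.

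UBE2A (RAD6A), which marks chromatin and takes part in the N-end rule pathway, had 30.7 to 40.8 CPM in adipose (median 35.0) and 73.0 to 117 CPM in muscle (median 92.6), with no overlap and a log2 difference of -1.42 (SE 0.0636, adjusted p = 3.58e-22) by edgeR. With library totals it did not differ beyond the test's threshold (-0.03, adjusted p = 0.693). UBE2Q2, UBE2O, UBE2V2, UBE2V1, UBE2J2, UBE2E1 and UBE2Q1 lay on the same side with separate tissues, at -1.42, -1.24, -1.24, -1.09, -1.08, -0.84 and -0.75. UBE2V1 and UBE2V2 are inactive E2 variants that pair with UBE2N to build chains linked through lysine 63 of ubiquitin, and being near copies of each other they are uncertain as single genes. UBE2NL (-0.95), the gene the table names as a UBE2N copy, is uncertain for the same reason. UBE2W, which marks the amino terminus of proteins, was higher in muscle at -0.35.

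On the adipose side, UBE2J1, an E2 of the endoplasmic reticulum, had 22.3 to 42.8 CPM in adipose (median 30.8) and 17.4 to 26.6 CPM in muscle (median 20.0). It was higher in adipose in 17 of 18 pigs with overlapping tissues (0.54, SE 0.0732, adjusted p = 1.35e-08 by edgeR). UBE2Z, the E2 that pairs with the activating enzyme UBA6, differed by 0.29 (SE 0.0861, adjusted p = 0.00196). UBE2C and UBE2L6 are given with the cell cycle and the interferon-induced genes below. UBE2G2, which serves the degradation of misfolded proteins of the endoplasmic reticulum, and UBE2H did not pass, at 0.13 (SE 0.0655) and -0.13 (SE 0.0850).

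F-box genes went both ways, in shares near those of all genes. Of 21 FBXO genes tested, 10 were called for muscle and 9 for adipose, against 39.2% and 46.7% of all genes, and 2 missed the threshold, with a median of 0.08, which lies -0.06 from the median gene, and with library totals 19 were higher in adipose and 2 in muscle, where 80.9% and 12.1% of all genes were. The 2 that were higher in muscle under both scalings were FBXO40 and FBXO31. FBXO31, which recognises cyclin D1 and damaged proteins, had 11.2 to 21.9 CPM in adipose (median 13.9) and 88.4 to 145 CPM in muscle (median 102). No library overlapped, and muscle was 7.34-fold higher (-2.88, SE 0.0837, adjusted p = 1.57e-27 by edgeR; -1.51 with library totals). FBXO9, FBXO3, FBXO11, FBXO10, FBXO30, FBXO42, FBXO25 and FBXO28 were higher in muscle by lesser margins, from -0.93 to -0.21, and for all 8 the sign turns with library totals, to between 0.46 and 1.17.

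At the other end, FBXO39 had 7.41 to 32.3 CPM in adipose (median 19.5) and 0.709 to 3.61 CPM in muscle (median 1.94). Every adipose library was above every muscle library, by 9.04-fold on the fitted scale (3.18, SE 0.196, adjusted p = 7.52e-18 by edgeR). FBXO8, an F-box protein with a Sec7 domain, had 16.2 to 25.1 CPM in adipose (median 18.4) and 4.68 to 14.2 CPM in muscle (median 7.28) and was likewise separate (1.27, SE 0.0956, adjusted p = 3.14e-15). FBXO24, FBXO4, FBXO48, FBXO21, FBXO34 and FBXO7 were higher in adipose at 2.47, 1.23, 1.18, 0.79, 0.66 and 0.50. FBXO24 was low in both, with medians of 1.72 and 0.315 CPM. FBXO38 and FBXO33 did not pass.

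TRIM genes leaned to adipose with trimmed-mean factors. Of 25 tested, 16 were called for adipose and 7 for muscle, against 46.7% and 39.2% of all genes, and 2 missed the threshold. Their median was 0.37, or 0.23 relative to the median gene. With library totals 80.9% of all genes were higher in adipose and 12.1% in muscle, and the TRIM calls lay near these shares, with 20 for adipose and 3 for muscle. Those 3 are the muscle ligases TRIM63, TRIM55 and TRIM72. Without them, 16 of 22 were higher in adipose and 4 in muscle with trimmed-mean factors, and 20 and 0 with library totals. TRIM2, a ligase known from neurons, had 19.4 to 33.7 CPM in adipose (median 23.2) and 2.34 to 6.33 CPM in muscle (median 4.27). The tissues did not overlap, and adipose was 5.37-fold higher (2.43, SE 0.0991, adjusted p = 2.12e-23 by edgeR's quasi-likelihood test). TRIM47, TRIM4 and TRIM59 followed at 1.79, 1.42 and 1.28, with separate tissues for TRIM47 and TRIM59. The remaining calls on this side were TRIM62, TRIM37, TRIM27, TRIM39, TRIM44, TRIM66, TRIM68 and TRIM13, from 0.79 down to 0.26. TRIM45, TRIM24, TRIM23 and TRIM32 were higher in muscle at -1.33, -0.87, -0.61 and -0.35, and all 4 are positive with library totals, TRIM45 and TRIM24 without passing. TRIM24 reached 85.1 CPM in the muscle of pig Sample_572, against a median of 18.1.

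All 4 measured genes of a list of muscle ligases were far higher in muscle under both scalings, with medians of -6.40 and, with library totals, -5.08. Of all genes 39.2% were higher in muscle, or 12.1% with library totals. TRIM63 (MuRF1, ENSSSCG00000027684), which marks myosin and other thick filament proteins, had 0.247 to 32.0 CPM in adipose (median 1.25) and 54.4 to 556 CPM in muscle (median 127). Muscle was 56.8-fold higher on the fitted scale (-5.83, SE 0.510, adjusted p = 3.65e-13 by edgeR's quasi-likelihood test). TRIM55 (MuRF2), its relative at the sarcomere, had 0 to 9.10 CPM in adipose (median 0.437) and 65.6 to 145 CPM in muscle (median 100.3) and was at 0 in 2 adipose libraries (-6.27, SE 0.386, adjusted p = 1.35e-17). TRIM72 (MG53), which patches the torn muscle membrane, had 0.139 to 23.2 CPM in adipose (median 0.802) and 119 to 343 CPM in muscle (median 246), a log2 difference of -6.52 (SE 0.486, adjusted p = 3.96e-15). FBXO40, an F-box protein that targets IRS1 in muscle, had 0.243 to 20.0 CPM in adipose (median 1.45) and 88.5 to 614 CPM in muscle (median 243), a log2 difference of -6.54 (SE 0.401, adjusted p = 1.27e-17). For each of them every muscle library was above every adipose library, as for 17.6% of all genes, and pig Sample_731 held the highest adipose value. The fifth gene of the list, TRIM54, was not matched by symbol.

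**Figure D3:**
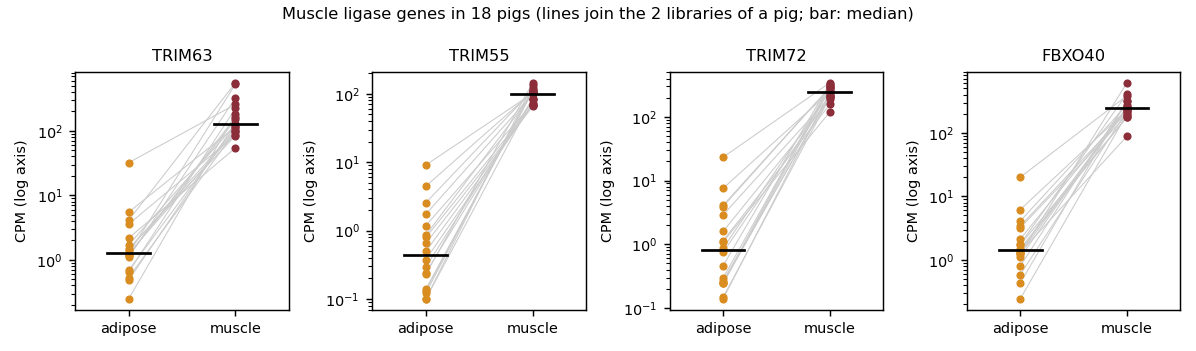
CPM (log axes) of TRIM63, TRIM55, TRIM72 and FBXO40 in the 18 adipose and 18 muscle libraries, with lines joining the libraries of a pig, bars at the medians and values under 0.1 CPM drawn at 0.1. In each panel all muscle points lie above all adipose points, and the highest adipose point is pig Sample_731.

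The levels of 3 of these 4 ligases in adipose went with muscle actin in the same library. ACTA1, the actin of the skeletal muscle fibre, was lowest in the adipose of pig Sample_991, at 52.4 CPM, and highest in that of pig Sample_731, at 17526 CPM. In a scan chosen after the data were seen, 3 of 85 members correlated with it over the 18 adipose libraries (permutation test with Benjamini-Hochberg adjustment over 12541 genes), all positively, where 1.93% of all genes were called positive and 0.0957% negative. They were TRIM55 (rho 0.938, r 0.937), TRIM72 (rho 0.901, r 0.936) and FBXO40 (rho 0.777, r 0.812), and without the 2 libraries farthest from the median r was 0.909, 0.906 and 0.668. TRIM63 had a rho of 0.707 and did not pass (permutation test, adjusted p = 0.0695). The scan took all genes kept by the filter on low counts over both tissues. These 4 ligases were kept through their muscle levels, and their adipose medians, given above, lay near the floor. The calls therefore do not describe members with an appreciable adipose level. At an unadjusted p under 0.05 there were 11 members, against 13.9% of all genes. With Pearson's r 5 members were called, where 2.81% of all genes were, and without the 4 actin-rich pigs the count was 1, where 0.797% were. Leaving those 4 pigs out moved the tissue differences of TRIM63, TRIM55, TRIM72 and FBXO40 to -7.27, -7.77, -8.18 and -7.60. The sum of the muscle fibre markers in adipose, 76.4 to 18992 CPM, spans the same libraries, and its part in the adipose levels was not tested.

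Within muscle, TRIM63 varied more than any other member with a mean of at least 10 CPM, with an SD of 0.906 on the log2 scale against a median of 0.355 over all genes. The highest library was that of pig Sample_735, at 556 CPM, and the lowest that of pig Sample_242. In a further scan chosen after the data were seen, 0 of 84 other members and 0% of 12540 genes correlated with TRIM63 over the 18 muscle libraries (permutation test, adjusted p), while 14 of the 84 had an unadjusted p under 0.05, as did 11.5% of all genes. The highest coefficients were those of PSME4 (rho 0.690) and TRIM33 (rho 0.688), and the lowest that of PSMB7 (rho -0.754). With Pearson's r the count was 0 too, for members and for all genes, and with library totals 2 members were called, where 1.18% of all genes were.

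Genes induced by interferon were higher in adipose or did not pass. Of 14 genes listed, 9 were in the table and 6 were tested, of which 5 were higher in adipose, as 46.7% of all genes were, and PSME2 did not pass (median 1.12, 0.99 above the median gene). With library totals all 6 were higher in adipose, as 80.9% of all genes were. Of 7 interferon response markers listed apart from these, 6 were measured, of which 4 were higher in adipose, and TAP1 and TAP2 did not pass. UBE2L6, the E2 of the ubiquitin-like modifier ISG15, had 117 to 401 CPM in adipose (median 254) and 34.7 to 248 CPM in muscle (median 99.0). It was higher in adipose in 17 of 18 pigs with wide overlap (1.15, SE 0.206, adjusted p = 3.54e-06 by edgeR's quasi-likelihood test). TRIM34, which restricts retroviral capsids, had 12.8 to 42.8 CPM in adipose (median 27.7) and 2.00 to 6.14 CPM in muscle (median 3.45) and was separate between tissues (2.80, SE 0.161, adjusted p = 8.6e-19). Relatives of it at the same locus share sequence with it, so its level is uncertain. TRIM25, the ligase that activates the RNA sensor RIG-I, had 6.78 to 16.8 CPM in adipose (median 11.6) and 1.34 to 5.37 CPM in muscle (median 3.17), also separate (1.90, SE 0.138, adjusted p = 1.16e-15).

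TRIM26 had 30.8 to 67.2 CPM in adipose (median 52.3) and 11.7 to 34.3 CPM in muscle (median 24.7) and was higher in adipose in 18 of 18 pigs with some overlap (1.10, SE 0.0950, adjusted p = 1.62e-13 by edgeR). In the gene order of RefSeq's Sscrofa11.1 table it follows TRIM40, TRIM10 and TRIM15 without a gene between, and these 3 were at or near 0, with no more than 14 counts over all adipose libraries. TRIM21, an antibody receptor and ligase of the cytosol, had 25.6 to 71.7 CPM in adipose (median 45.9) and 8.01 to 44.3 CPM in muscle (median 20.1), with more in adipose in 18 of 18 pigs (0.996, SE 0.188, adjusted p = 7.88e-06). UBA7, the E1 that feeds UBE2L6, had 89.6 to 319 CPM in adipose (median 191) and 13.4 to 112 CPM in muscle (median 49.4), a log2 difference of 1.76 (SE 0.212). Macrophage and lymphocyte markers were higher in adipose for all 5 and all 4 measured, as 46.7% of all genes were, or 80.9% with library totals. Their summed levels are given above, and the part of these markers in the differences was not tested.

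**Figure D4:**
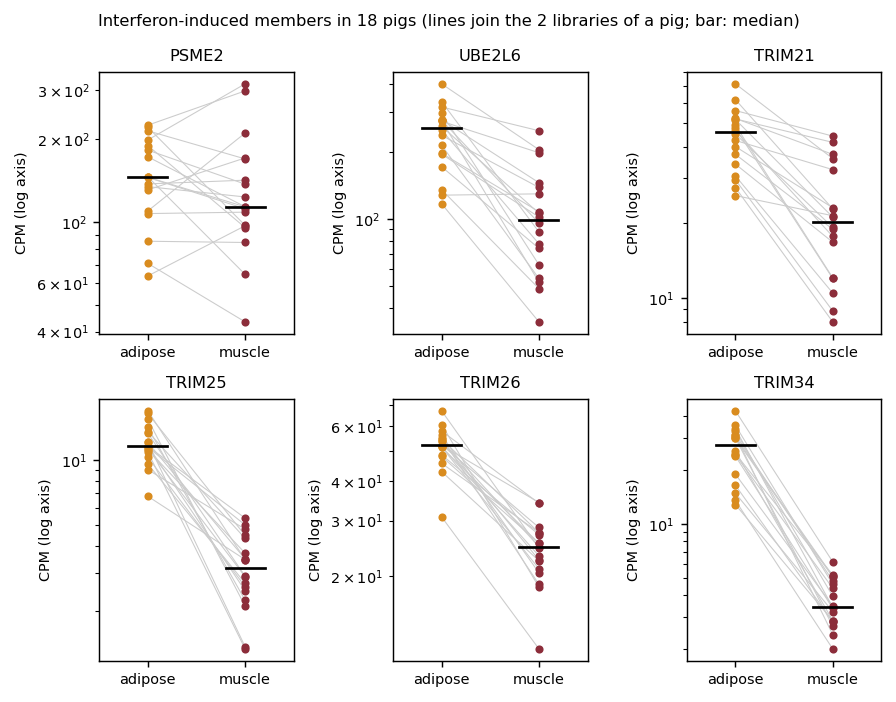
CPM (log axes) of 6 interferon-induced members in the 18 adipose and 18 muscle libraries, with lines joining the libraries of a pig and bars at the medians. PSME2 overlaps between tissues with medians of 145 and 113 CPM, whereas TRIM25 and TRIM34 are separate.

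Of 5 cell cycle genes listed, UBE2S and FBXO43 were not matched, UBE2T was under the filter, and UBE2C and FBXO5 were higher in adipose, as 46.7% of all genes were. UBE2C, the E2 of the anaphase-promoting complex, had 3.52 to 26.1 CPM in adipose (median 5.84) and 0.683 to 13.2 CPM in muscle (median 3.23), with more in adipose in 17 of 18 pigs (1.04, SE 0.328, adjusted p = 0.00376 by edgeR's quasi-likelihood test). FBXO5 (EMI1), which inhibits that complex, had 2.32 to 10.8 CPM in adipose (median 4.09) and 0.958 to 4.21 CPM in muscle (median 2.46), a log2 difference of 0.89 (SE 0.192, adjusted p = 6.24e-05). The highest UBE2C values of both tissues came from pig Sample_889. UBE2T, the E2 of the Fanconi anaemia pathway, was under the filter with 312 counts over adipose and 7 over muscle. Markers of dividing cells (5 of 6 measured) were higher in adipose for all 5 and summed to 33.6 to 223 CPM in adipose and 6.75 to 110 CPM in muscle, where pig Sample_889 was again the highest.

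Partner genes of the pathway, which the rule leaves out, went both ways. Of all genes, 39.2% were higher in muscle and 46.7% in adipose, or 12.1% and 80.9% with library totals. The ubiquitin gene UBB, which encodes a chain of ubiquitin, was higher in muscle at -0.51 (SE 0.0835), and the ubiquitin-like modifier SUMO2 did not pass (-0.10, SE 0.0790), by edgeR's quasi-likelihood test. With library totals UBB turns to 0.84. Of 6 E1 enzymes, 3 were higher in muscle, among them UBA1, the main activating enzyme of ubiquitin (-0.75, SE 0.0690), and UBA3 of the NEDD8 pathway (-0.93, SE 0.0782), and 3 higher in adipose, among them UBA7. With library totals all 6 were higher in adipose, UBA1 at 0.61 and UBA3 at 0.47. All 7 proteasome-bound and shuttle factors examined were higher in muscle (median -1.43), from ECPAS, an adaptor of the proteasome (-2.49, SE 0.124), over the deubiquitinase UCHL5 (-2.14, SE 0.0938) to the shuttle UBQLN1 (-0.36, SE 0.0643), and with library totals 3 were higher in muscle and 2 in adipose. Of 7 cullin ligase genes, 6 were higher in muscle, CUL4A (-2.60, SE 0.0678) and CUL5 (-2.47, SE 0.119) the farthest, and CUL4B was higher in adipose (0.92, SE 0.0662). With library totals 4 were higher in muscle, among them CUL4A (-1.21) and CUL5 (-1.09), and 3 in adipose, since CUL1 (0.74) and CUL2 (0.63) turned. Of the factors known to drive proteasome genes, NFE2L1 was higher in muscle (-0.72, SE 0.0915, but 0.63 with library totals), and NFE2L2 was higher in adipose (1.04, SE 0.107).

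The levels of the proteasome subunits went together over pigs, and their spread was ordinary for their level. The median SD of log2 CPM over the 19 subunits was 0.233 in adipose and 0.302 in muscle, against 0.226 and 0.266 over UBE2 genes, 0.241 and 0.280 over FBXO genes, 0.268 and 0.382 over TRIM genes, and 0.317 and 0.355 over all genes with enough counts. Among the 500 genes nearest in mean level, the SD of a subunit stood at a median percentile of 44.4 in adipose and 47.4 in muscle. The median rho of a subunit with the mean of the other 18 was 0.556 in muscle, where all 19 were positive, and 0.389 in adipose, where 17 were. PSMC1 (0.911) and PSMB1 (0.827) were the closest to the rest in muscle, and PSMC1 (0.884) and PSMB1 (0.880) in adipose, while PSMD5 was the least close in both, at 0.0444 and -0.253. UBE2 genes had medians of 0.166 in muscle and 0.193 in adipose, FBXO genes 0.221 and -0.064, and TRIM genes 0.0836 and 0.184. These values share the scaling factor of a library, and with library totals they rise to 0.812 for the subunits in muscle and to 0.720 for FBXO genes, so they are given as descriptions. The mean log2 CPM of the subunits ran from 5.58 (pig Sample_114) to 6.19 (pig Sample_911) in adipose and from 6.62 (pig Sample_77) to 7.21 (pig Sample_231) in muscle. Pig Sample_911 held the highest adipose value of 23 of the 85 members tested, and pigs Sample_231 and Sample_572 the highest muscle value of 17 each.

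Whether a pig high for a member in adipose is also high in muscle was asked for the 80 members that reached 1 CPM in 15 or more of the 18 libraries, in both tissues. None was called (0 of 80, permutation test on Spearman's rho with Benjamini-Hochberg adjustment), where 0.567% of 11109 genes were, and with Pearson's r the count was 0 too, where 1.81% of genes were called. At an unadjusted p under 0.05 there were 14 of the 80, against 14.2% of all genes. The median rho was 0.189 for the members and 0.185 for all genes. By subgroup it was 0.335 for the 19 proteasome subunits, 0.164 for UBE2, 0.156 for FBXO and 0.157 for TRIM genes. The mean of the subunits had a rho of 0.585 between tissues and an r of 0.360.

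The closest of them were PSMD1 (rho 0.763, adjusted p = 0.0578 by permutation, r 0.706) and FBXO7 (rho 0.763, adjusted p = 0.0623 by permutation, r 0.683), an F-box protein that also binds the proteasome. Without the 2 pigs farthest from the median r was 0.636 and 0.666. Leaving out pig Sample_77 or Sample_186 brings PSMD1 past the threshold, with rho 0.804 and 0.855, and leaving out pig Sample_114, Sample_231 or Sample_659 does so for FBXO7, with rho 0.792, 0.801 and 0.784. UBE2Z (rho 0.682) and TRIM21 (rho 0.645) came next and did not pass with any single pig left out. With library totals 2 members, both proteasome subunits, were called, against 3.53% of all genes.

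**Figure D5:**
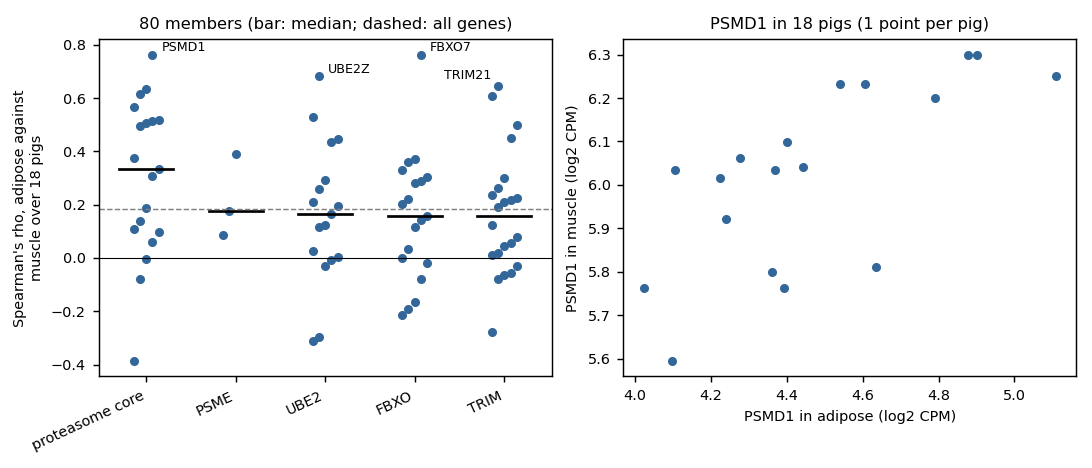
Left, Spearman's rho between the adipose and the muscle level of a gene over 18 pigs for 80 members by subgroup, with bars at the subgroup medians and a dashed line at the median of all genes (0.185). Right, PSMD1 in adipose against PSMD1 in muscle (both log2 CPM), 1 point for each of 18 pigs, with rho 0.763.

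The 24 members under the filter were at 0, low, or, for TRIM29 and UBE2T among others, uneven between pigs. Without the filter 18 of them could be tested, and 11 passed, all higher in adipose (edgeR, adjusted p), where 44.9% of all genes were. Apart from PSMA8, PSMB11 and PSME1, the genes TRIM10, TRIM67 and TRIM77 had no read counted in any library. TRIM29, a TRIM protein of epithelia without the ligase domain, held 1024 counts over the adipose libraries and 6 over the muscle libraries, and pig Sample_889 had the highest adipose level, 29.8 CPM against a median of 1.80. TRIM36 held 182 and 20 counts and TRIM17 94 and 11. FBXO15, FBXO2, FBXO36 and FBXO41 held 53, 47, 33 and 3 counts over adipose and 26, 3, 2 and 0 over muscle. The other 7, which are TRIM9, TRIM15, TRIM40, TRIM42, TRIM46, TRIM50 and TRIM69, had at most 25 counts over the libraries of a tissue.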

How the data were processed

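RNA was isolated with a MagMAX kit, made into TruSeq libraries and read at both ends for 100 nt on a HiSeq instrument, per the labels' protocols. The authors deposited 1 table of expected counts per gene for 25322 Ensembl pig genes and 36 libraries, not normalised. GSNAP and HTSeq are named, without versions, per the submitters' processing notes, and they give no strand, build or annotation, so reads of overlapping or antisense genes cannot be told apart. The deposited counts run in steps of 0.5, with 35.1% of values not whole, and were rounded to whole numbers (ties to even). The 5 lines that name no gene were left out, of which the reads in no gene made up 34.5% ± 5.60 of an adipose and 19.9% ± 4.01 of a muscle library (SD, n = 18). A symbol was found for 11804 gene IDs in a table of current names, and a subunit without a matched symbol is not among the members. RefSeq's Sscrofa11.1 gene table was used for gene order only. Columns left unused numbered 0.

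Tissue and pig number come from the sample titles. Libraries of 1 number are from 1 animal, so the numbers pair them. Deviations from the tissue mean correlated at 0.231 on average within a pig (0.0996 to 0.368) and at -0.0137 between pigs, and the own pig was the best match for 10 of 18. The pigs are separate animals, and pairs of pigs matched by litter are not given.

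All genes were tested together with edgeR 4.0.16 in R 4.3.3 (quasi-likelihood, robust fit, tissue only, trimmed-mean factors, default low-count filter, 12542 genes kept), and p values were adjusted by Benjamini-Hochberg with a threshold of 0.05. The SE is the log2 difference over the square root of the F statistic. Levels are CPM with the same factors, which averaged 1.62 in adipose and 0.626 in muscle, and correlations used log2 CPM with a prior count of 2 and 100000 two-sided permutations of the pigs (Python 3.11.15, NumPy 2.4.6, SciPy 1.17.1, pandas 2.3.3, numba 0.67.0). Alternatives were other scalings (library totals, upper quartile, DESeq2 1.42.0 factors), DESeq2's Wald test, other filters and prior counts, doubled counts, pig as a block, covariates removed, and pigs left out singly or in sets. Figures were drawn with Matplotlib 3.10.9, and the scripts were tested on simulated data.

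The members and lists were chosen with earlier results of these data known. Named genes are the catalytic, inducible, activator, muscle ligase, cell cycle and interferon-induced members, up to 2 in each direction per subgroup with at least 10 CPM in the higher tissue, the 4 with the largest SD in each tissue, and the 4 with the highest correlation between tissues. Values of other members are given beside them, and those were chosen after their values were seen, as were the scans against ACTA1 and TRIM63. Some genes of the lists are not reported here.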

Additional observations from a re-analysis of the deposited data

How the results depend on the processing

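The direction of the tissue differences rests on the scaling. With library totals alone the counts were 64 members higher in adipose and 9 in muscle, against 80.9% and 12.1% of all genes. Of the subgroups, 3 proteasome subunits, 1 UBE2 gene and 2 FBXO genes were higher in muscle. Among the named genes, PSMB7 (0.36), PSME3 (0.59), PSMA3 (0.35), PSMA5 (0.60) and PSMB1 (0.45) turned to the adipose side. PSME2 (1.51) gained a call, and PSMD1, PSME4 and UBE2A lost theirs. The other scalings, the filters, doubled counts and DESeq2's Wald test kept all these counts within 1.5 times and all named signs, and of the named calls only PSMD5 was lost, with DESeq2's size factors in edgeR's test (log2 difference 0.22), with DESeq2's Wald test (0.23, adjusted p = 0.0519) and without the 4 actin-rich pigs (0.20, adjusted p = 0.122 by edgeR). With the replicate block, pig number as a block, no named call changed, and PSMD5 stood at 0.24 (adjusted p = 0.0344 by edgeR). Without the pairing, the difference of the PSME2 to PSME3 ratio stayed at 0.963 with a permutation p of 0.00018. Without single pigs, members higher in adipose numbered 29 to 31 and in muscle 45 to 48, subunits higher in muscle 17 to 18, UBE2 genes 11 to 12, FBXO genes 9 to 10 and TRIM genes higher in adipose 15 to 16, and the ratio differed by 0.893 to 1.02 with a correlation between tissues of 0.282 to 0.483.

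Correlation counts moved most. Members called between tissues numbered 2 with library totals, where 3.53% of all genes were called, and 0 to 1 without single pigs. For TRIM63 in muscle there were 2 with library totals, against 1.18% of all genes. For ACTA1 in adipose there were 5 with Pearson's r and 1 without the 4 actin-rich pigs, against 2.81% and 0.797% of all genes. The ratio's correlation passed with Pearson's r (0.526). The cause of these changes was not tested. Values of genes with few counts, PSMB8 and PSMB9 among them, rest on few reads, and why these counts are low was not tested.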
